A study of Mus musculus with 16 samples.

Results

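The data described here are the expression levels of genes along mouse chromosome 14 in *Sox2*-null embryonic stem cell (ESC) lines, read from Illumina bead arrays. A gene was counted where the annotation of its probe put it on chromosome 14 and where the probe was detected (detection p under 0.05) on both arrays of at least 2 of the 8 lines. This kept 316 of the 584 chromosome 14 genes on the array, out of 9300 genes measured over all chromosomes. The genes were numbered by their start and split at *Mmrn2* and *Tsc22d1*. The stretch from *Mmrn2* to *Tsc22d1*, both included, held 175 measured genes of 349 on the array, and the rest of the chromosome held 141 of 235, with 95 before the stretch and 46 after it. The stretch was chosen by its low levels in S95 clones 1 and 4, so its level in those clones against the rest of the chromosome is given as a description and was not tested.

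All lines were of 129/Ola background, lacked endogenous *Sox2*, and carried a mouse *Sox2* transgene that doxycycline represses. The rescue lines were clones that had received a human *SOX2* construct in a PiggyBac vector and were kept in doxycycline and hygromycin, under which the construct was meant to be their source of SOX2. SWT carries the wild-type construct (clones 4 and 5), S113 the R113E construct (clones 4 and 5) and S95 the mutant construct of clones 1, 2 and 4. In TSS, a single line, the mouse transgene was expressed. The name S95 is that of the labels, and these clones were taken as the study's R98E and M102E double mutant, since the study profiled 3 clones of that mutant and obtained no colonies with its other double mutant. Each line is 1 clone on 2 arrays, and since nothing says that these came from separate cultures, lines and not arrays were used as replicates. PiggyBac inserts its cargo at many places in the genome, and each clone was grown from a single colony. Insertion sites were not mapped, so whether clones of a construct share them, or descend from the same transfected cell, is not known.

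OCT4 and SOX2 bind together at the enhancers of genes that keep ESCs undifferentiated, and loss of either lets the cells differentiate. Mouse chromosome 14 carries some developmental regulators known from such cells, among them *Otx2*, an early activator of the epiblast, *Bmp4*, a secreted signal of early patterning, and *Gata4* and *Sox7*, transcription factors of the extraembryonic endoderm. Most of its genes, however, are neighbours with unrelated tasks, including DNA repair, splicing, mitosis and protein breakdown.

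Promoters of 4 stretch genes are shown. *Parp2* and *Tox4* were lowest in clones 1 and 4. In clone 2 *Parp2* lay below SWT as well (-0.56), and *Tox4* did not (0.22). *Defb42* and *Tsc22d1* were low in all 3 S95 clones. The windows run from 250 bases before to 50 bases after the start, are given 5′ to 3′ on the plus strand, and come from RefSeq on GRCm38.p6. Capitals mark a motif that was searched for. *Tsc22d1* (chr14:76414711-76415010) is the gene at the distal edge, *Defb42* (chr14:63046741-63047040) has the second lowest mean over the S95 clones, and *Parp2* (chr14:50807666-50807965) and *Tox4* (chr14:52278896-52279195) were chosen after their values were seen, as genes of the stretch whose arrays in clones 1 and 4 lay below all others. *Mmrn2*, *Fgf17* and *Clu* had no entry in the promoter table.
Parp2: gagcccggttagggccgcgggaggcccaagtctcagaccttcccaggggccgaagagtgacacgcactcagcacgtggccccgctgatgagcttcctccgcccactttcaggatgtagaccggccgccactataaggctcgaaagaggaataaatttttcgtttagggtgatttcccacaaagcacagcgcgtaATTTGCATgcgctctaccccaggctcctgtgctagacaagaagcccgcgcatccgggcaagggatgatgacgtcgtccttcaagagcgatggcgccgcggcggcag
Tox4: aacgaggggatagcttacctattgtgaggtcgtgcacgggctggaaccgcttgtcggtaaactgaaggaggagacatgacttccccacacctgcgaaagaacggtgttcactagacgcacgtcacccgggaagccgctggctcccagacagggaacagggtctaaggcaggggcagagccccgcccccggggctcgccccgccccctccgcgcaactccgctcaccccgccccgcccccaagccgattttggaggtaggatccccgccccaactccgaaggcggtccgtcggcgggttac
Defb42: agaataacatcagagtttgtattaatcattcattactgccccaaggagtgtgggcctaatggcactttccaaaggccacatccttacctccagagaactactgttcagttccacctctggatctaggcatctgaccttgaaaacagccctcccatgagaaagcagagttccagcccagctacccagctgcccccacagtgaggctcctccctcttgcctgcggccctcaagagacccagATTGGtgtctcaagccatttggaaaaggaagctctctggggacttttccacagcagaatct
Tsc22d1: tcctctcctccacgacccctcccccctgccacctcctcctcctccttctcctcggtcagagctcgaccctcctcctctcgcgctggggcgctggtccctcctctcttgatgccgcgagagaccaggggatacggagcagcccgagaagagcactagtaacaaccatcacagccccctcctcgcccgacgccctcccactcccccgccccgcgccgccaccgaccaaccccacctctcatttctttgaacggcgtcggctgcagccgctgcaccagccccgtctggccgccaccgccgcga
The octamer ATGCAAAT, bound by OCT4, the SOX core CATTGT, the CCAAT box and the TATAAA box were searched on both strands. *Parp2* held the octamer, *Defb42* held a CCAAT box, and *Tox4* and *Tsc22d1* held no searched motif. Of the 121 stretch genes with a promoter in the table, 0.826% held the octamer, 4.13% the SOX core, 38.0% the CCAAT box and 8.26% the TATAAA box. The shares were 0.8%, 4.8%, 38.4% and 11.2% among 125 promoters of the rest of chromosome 14, 1.46%, 6.73%, 39.2% and 7.63% among 7590 promoters of measured genes, and 1.77%, 12.8%, 38.0% and 14.2% among all 27025 promoters of the table. The promoters of the 4 genes held 25 (*Parp2*), 27 (*Tox4*), 1 (*Defb42*) and 27 (*Tsc22d1*) CpG dinucleotides, against a median of 19 in the stretch and 24 in the rest. The one CpG-poor start shown, that of *Defb42*, belongs to a gene low in each S95 clone (-2.50, -2.66 and -2.92 in clones 1, 4 and 2).

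Levels are background-corrected, quantile-normalized log2 intensities, and a difference from SWT is the log2 level of a line minus the mean of both SWT clones (for an SWT clone, minus the other clone). The median difference of the 175 stretch genes was -0.67 in S95 clone 1 and -0.67 in clone 4, a ratio of 0.63 to SWT. In S95 clone 2, which carries the same construct, it was 0.02. The medians were -0.02 in both S113 clones, -0.03 in TSS and 0.01 in SWT clone 4 against clone 5. For the 141 genes of the rest of the chromosome the medians were -0.05 in clone 1, 0.01 in clone 4 and -0.06 in clone 2. The stretch thus lay well below the rest in S95 clones 1 and 4, the clones by which it and its edges were chosen. In the other lines the stretch minus the rest lay between -0.05 and 0.08. In clones 1 and 4 the genes before the stretch had medians of -0.01 and 0.12. Those after it had -0.18 and -0.13.

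The stretch minus the rest came to -0.62 in clone 1 and -0.69 in clone 4. Read on single arrays it was -0.63 and -0.64 in clone 1 and -0.63 and -0.72 in clone 4. On the 12 other arrays it lay between -0.04 and 0.17, with the highest value on 1 array of clone 2. No array of clones 1 and 4 overlapped with any other. The size depended on which genes were kept, being -0.77 and -0.88 in clones 1 and 4 for genes detected on all 16 arrays and -0.07 in both clones with no detection filter, where undetected probes make up a large part of the genes.

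**Figure D1:**
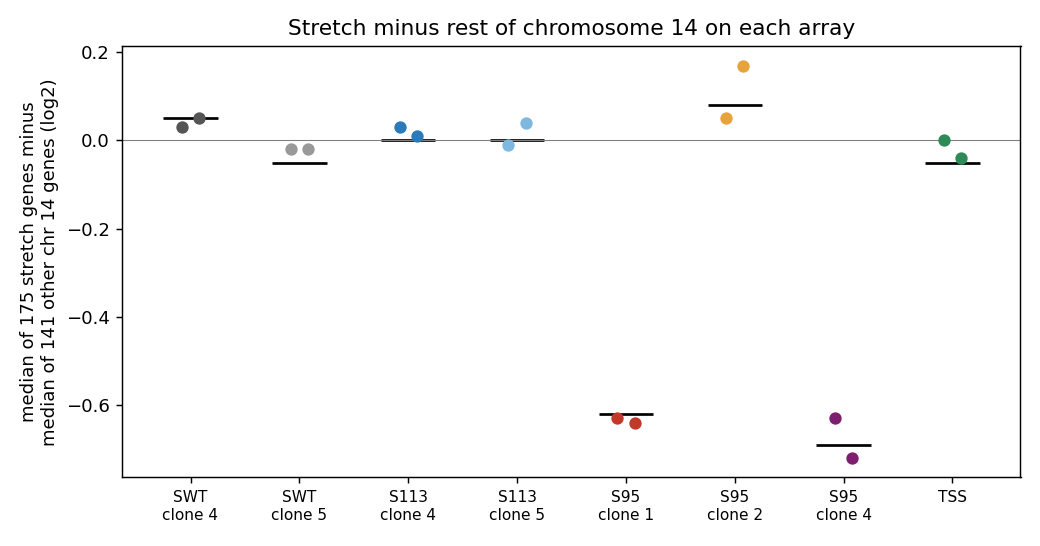
The median difference from SWT of the 175 stretch genes minus that of the 141 other chromosome 14 genes (vertical axis, log2) for each of the 8 lines (horizontal axis). Each point is 1 array and the black line is the value of the line from its mean levels, which is a median of its own and can lie outside the points. S95 clones 1 and 4 sit between -0.63 and -0.72, and all other arrays lie between -0.04 and 0.17.

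In clone 1, 100 of the 175 stretch genes (57.1%) lay at least 1.5-fold below SWT, where 14% of all genes did. In clone 4, 95 stretch genes (54.3%) did, against 16.8% of all genes. In clone 2 the number was 46 (26.3%), near its background of 24.1%. The counts were 12 in S113 clone 4 (background 4.23%), 10 in S113 clone 5 (7.26%), 14 in TSS (8.06%), 10 in SWT clone 4 (2.86%) and 6 in SWT clone 5 (2.92%). Genes at least 1.5-fold above SWT numbered 11 in clone 1 (background 13.8%), 14 in clone 4 (17.2%) and 42 in clone 2 (22.1%). In the rest of the chromosome 22 of 141 genes in clone 1, 24 in clone 4 and 41 in clone 2 lay at least 1.5-fold below SWT. In clones 1 and 4 the stretch thus held more low genes and fewer high genes than the array as a whole.

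The clones were also compared without SWT. Clone 1 minus clone 2 had a median of -0.64 over the stretch and -0.01 over the rest, and 155 of the 175 stretch genes lay below clone 2. Clone 2 minus clone 4 had a median of 0.63 over the stretch and -0.16 over the rest. Both clones lay below clone 2 at 144 stretch genes (82.3%), at 54 genes of the rest (38.3%) and at 3649 of all genes (39.2%). Clones 1 and 4 were close to each other, with a median difference of -0.06 over the stretch, a median size of 0.14, 8 genes at least 1.5-fold lower in clone 1 and 0 higher.

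Clones 1 and 4 were both below each of the other 6 lines at 98 stretch genes (56.0%), at 11 genes of the rest (7.8%) and at 7.08% of all genes. All 4 of their arrays lay below the other 12 at 72 stretch genes (41.1%) and 2 genes of the rest, against 3.19% of all genes. At these 98 genes the gap to the next line had a median of 0.35 and reached 1.22, whereas at the 11 genes of the rest it had a median of 0.05. The opposite order, with both clones above the other 6 lines, was found for 1 stretch gene, *Nefm*, a neurofilament subunit, and for 10 genes of the rest (background 6.99%). Low levels in both clones were thus common in the stretch, and the reverse order was found there once.

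**Figure D2:**
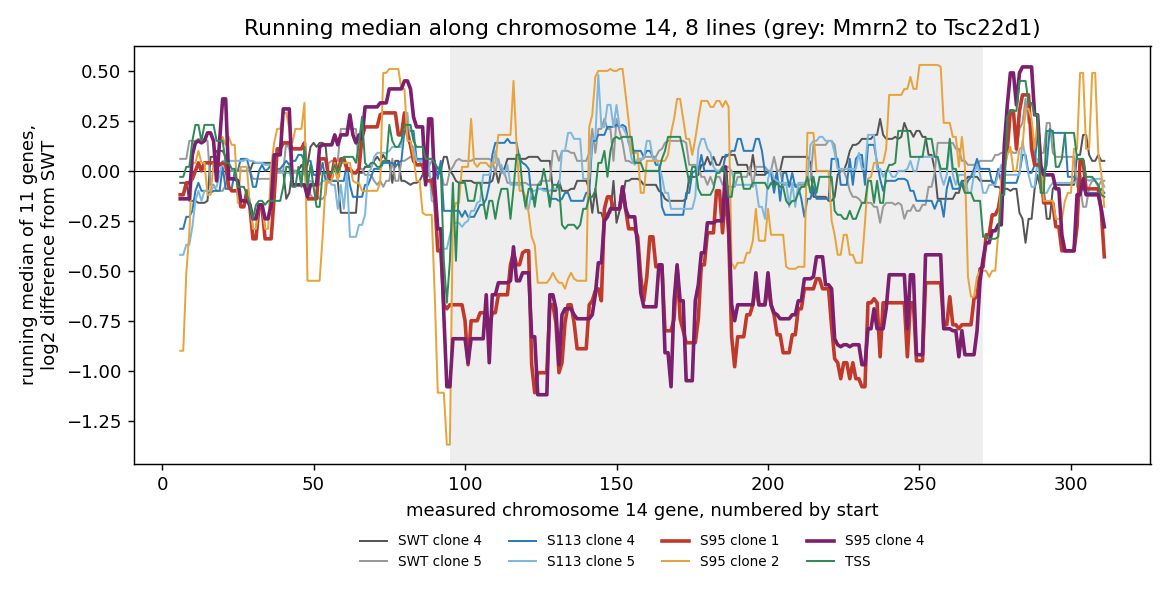
The running median over 11 neighbouring genes of the difference from SWT (vertical axis, log2) along the 316 measured chromosome 14 genes numbered by start (horizontal axis), 1 line for each cell line, with the stretch in grey. S95 clones 1 and 4 drop at its left edge and return at its right edge, to a lowest value of -1.11 and -1.12, while the SWT and S113 lines do not reach -0.5.

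Along the gene order, the running median over 11 genes was at or under -0.5 in 142 windows of clone 1, of which 139 were centred in the stretch, and in 141 windows of clone 4, of which 138 were. No window of an SWT or S113 line reached -0.5, and 1 window of TSS did. The windows of clone 1 formed 6 unbroken runs, the longest of 82 windows from *Cenpj* to *Gpalpp1*, and those of clone 4 formed 8 runs, the longest of 33 windows from *Pinx1* to *Hr*. Clone 2 had 41 such windows, 22 of them in the stretch, and its lowest value, -1.37, was at *Fam25c*, just before the proximal edge, where TSS also had its lowest value, -0.66. Cut into 4 blocks of neighbouring genes, the stretch had medians of -0.73, -0.47, -0.75 and -0.66 in clone 1 and of -0.70, -0.43, -0.67 and -0.79 in clone 4. In clone 2 the same blocks had -0.17, 0.25, -0.38 and 0.17. The low level in clones 1 and 4 thus ran through all 4 blocks, and it was smallest in the second, from *Tox4* to *Ripk3*, where clone 2 was highest.

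The difference was smaller among dim genes, and the middle and the brightest part were alike. The stretch genes were split into 3 parts by SWT level. In the dimmest part (59 genes at 4.32 to 6.16) the median was -0.19 in clone 1 and -0.08 in clone 4, in the middle part (58 genes at 6.17 to 8.19) -0.96 and -0.90, and in the brightest part (58 genes at 8.21 to 13.94) -0.90 and -0.89, a ratio to SWT of 0.53 and 0.54. The 47 brightest genes of the rest had medians of -0.09 and -0.03. Of the 77 stretch genes that were not lowest in both clones, 44 were in the dimmest part, and at 15 clone 2 was below both clones. Among the 87 stretch genes whose clone 2 level lay within 1.5-fold of SWT, the medians were -0.64 in clone 1 and -0.62 in clone 4, against 0.03 and 0.15 for the 77 such genes of the rest.

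**Figure D3:**
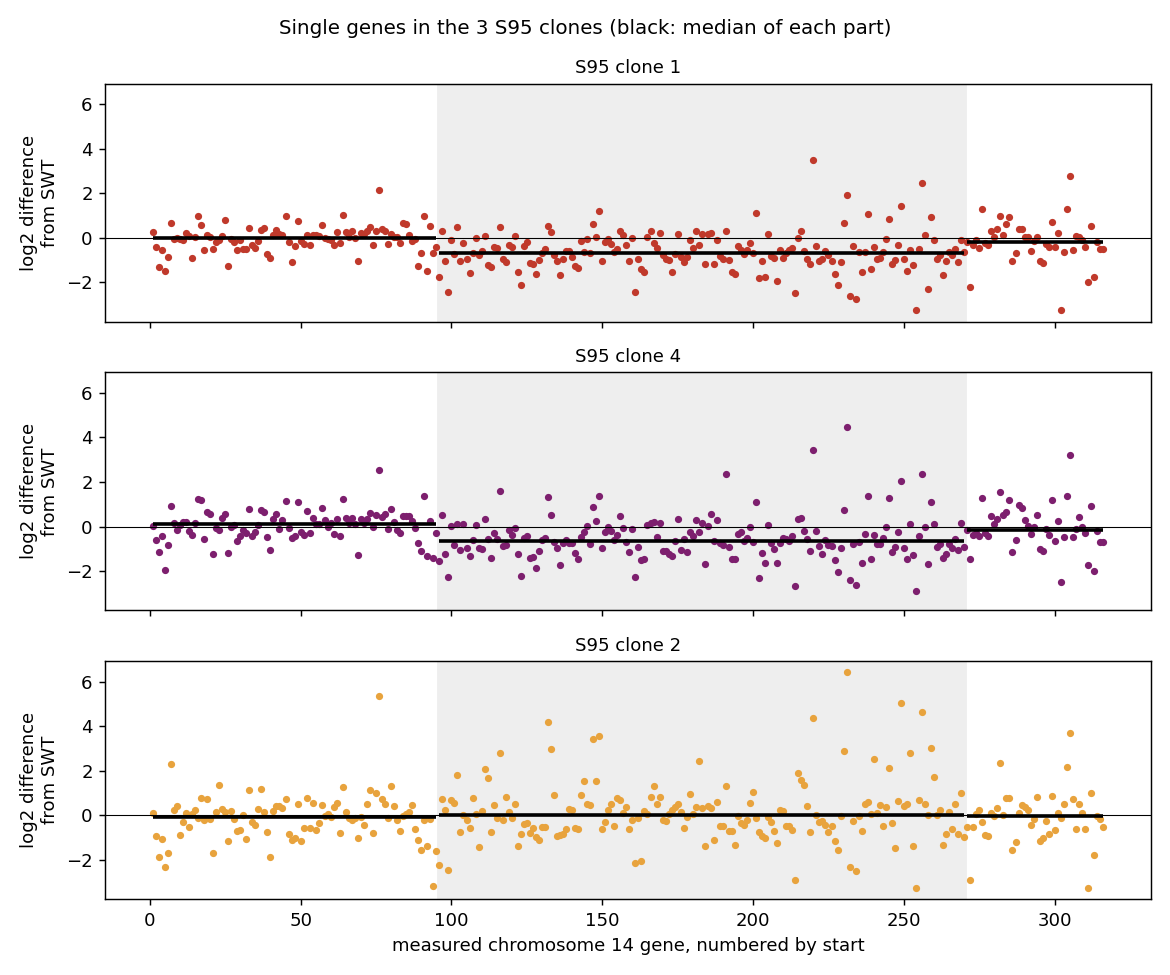
The difference from SWT (vertical axis, log2) of each measured chromosome 14 gene, numbered by start (horizontal axis), in the 3 S95 clones, with the stretch in grey and black lines at the median of the genes before, in and after it. The stretch median is -0.67 in clones 1 and 4 and 0.02 in clone 2, and clone 2 shows the widest scatter.

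Other probes gave the same order. The 53 kept probes that were not the brightest of their stretch gene, from 42 genes, had a median of -0.50 in clone 1, -0.41 in clone 4 and 0.14 in clone 2. The 46 such probes of the rest had 0.01, 0.09 and -0.19. Between 40.0% and 43.0% of the 488 stretch probes were detected on the arrays of clones 1 and 4 and between 41.4% and 48% on the others. Of the 349 probes of the rest, between 49.0% and 55.6% were detected, in clones 1 and 4 as in the other lines. Against the rest of the same array, probes of the stretch were thus detected least often in clones 1 and 4, though some SWT arrays came close.

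Chromosome 14 stood apart from the other chromosomes in these clones. Its median over all measured genes was -0.36 in clone 1 and -0.33 in clone 4, while the other chromosomes lay between -0.12 and 0.05 in clone 1 and between -0.06 and 0.04 in clone 4. In clone 2 chromosome 14 had -0.03, within the range of the others. Genes lowest in both clones made up 34.5% of chromosome 14 and between 3.13% and 9.48% of each other chromosome. The one other shift of this size was on chromosome 8 in S113 clone 5, with a median of -0.29.

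**Figure D4:**
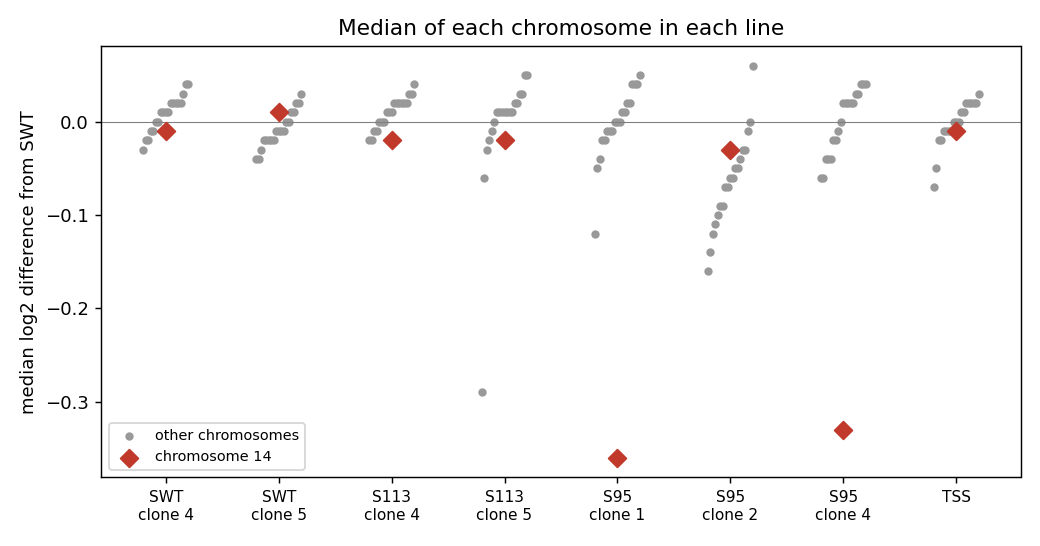
The median difference from SWT (vertical axis, log2) of the measured genes of each chromosome in each line (horizontal axis), chromosome 14 as a red diamond and each other chromosome as a grey point. Chromosome 14 is at -0.36 in S95 clone 1 and -0.33 in clone 4, and the low grey point of S113 clone 5 is chromosome 8 at -0.29.

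Marker levels of other cell types also differed between the lines. Of the 8 markers of extraembryonic endoderm, 7 were measured (*Afp* was not detected), and 1 of them, *Gata4*, lies in the stretch. Their mean level was 5.68 and 6.46 in SWT, 6.73 and 8.06 in S113 and 6.34 in TSS, and it was 8.78 in clone 1, 9.30 in clone 4 and 10.49 in clone 2. The 5 ESC markers (*Pou5f1*, *Nanog*, *Sall4*, *Utf1*, *Zfp42*) averaged 10.86 and 11.13 in SWT, 10.95 and 11.03 in S113, 11.47 in TSS, 10.42 and 10.39 in clones 1 and 4 and 8.90 in clone 2. In clone 2 *Nanog* read 8.30 (11.61 and 11.89 in SWT) and *Zfp42* 8.01 (10.78 and 11.30), while *Sall4* read 11.33 (11.16 and 11.40), and 4 of the 5 markers, all but *Sall4*, were lowest in this line. Of 6 trophectoderm markers 5 were measured, at a mean of 6.54 and 6.77 in SWT, 7.55 and 7.83 in S113, 8.06 in TSS and 8.40 to 9.19 in the S95 clones. *Krt8* read 6.78 and 8.19 in SWT and 11.37 to 12.55 in the S95 clones. *Krt18* read 5.75 and 4.87 in SWT and 9.62 to 11.23 in the S95 clones. Of the other trophectoderm markers, *Cdx2* and *Eomes* rose less and stayed dim. *Cdx2* read 4.33 and 4.36 in SWT and 5.08 to 5.94 in the S95 clones, beside 5.93 in TSS. *Eomes* read 4.83 and 5.05 in SWT and 5.15 to 6.12 in the S95 clones. *Tfap2c* did not rise, and was lowest in clone 2, at 9.02. Of 6 fibroblast markers *Col1a2*, *Lum* and *Postn* were not detected. The measured *Col1a1*, *Thy1* and *Dcn* had a mean of 4.91 to 5.69 over the lines. The stretch medians were -0.67 in clones 1 and 4 and 0.02 in clone 2, and whether they relate to these marker levels was not tested. The part of these cells in single genes was not tested, and in such bulk samples fewer cells of a type and less RNA per cell cannot be told apart. The *Sox2* probe read 4.77 and 4.88 in SWT, 7.66 and 8.02 in S113, 5.42, 5.02 and 6.31 in S95 clones 1, 4 and 2 and 6.37 in TSS, which does not separate the construct from the transgene. Detected probes made up 48.6% to 52.5% of each array.

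At the proximal edge, the 3 genes before *Mmrn2* showed no common drop in clones 1 and 4. They were *Glud1*, which encodes glutamate dehydrogenase, *Fam25c*, and *Sncg*, which encodes gamma-synuclein. Their differences in clones 1, 4 and 2 were 0.54, 0.26 and -0.16 for *Glud1*, -0.67, -1.43 and -3.19 for *Fam25c* and -0.40, -0.29 and -1.60 for *Sncg*, with clone 2 the lowest each time. *Mmrn2*, a secreted glycoprotein of blood vessels, read 8.30 and 7.96 in SWT clone 4, 8.36 and 8.01 in SWT clone 5, 7.97 and 7.95 in S113 clone 4, 7.73 and 7.80 in S113 clone 5, 5.77 and 6.04 in S95 clone 2, 7.08 and 6.91 in TSS, 6.42 and 6.38 in S95 clone 1 and 6.61 and 6.61 in S95 clone 4. All 3 S95 clones were low at this gene, clone 2 most of all, and TSS lay between them and SWT.

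*Bmpr1a*, a receptor for BMP ligands, is the second gene of the stretch and differed by 0.32, 0.53 and 0.74 in clones 1, 4 and 2, above SWT in each. *Ccser2*, a microtubule-bundling protein gene, is the third. *Ccser2* read 8.07 and 7.83 in SWT clone 4, 7.76 and 7.67 in SWT clone 5, 7.56 and 7.62 in S113 clone 4, 7.54 and 7.61 in S113 clone 5, 8.13 and 8.05 in S95 clone 2, 7.33 and 7.44 in TSS, 6.73 and 6.84 in S95 clone 1 and 6.61 and 6.61 in S95 clone 4. Clones 1 and 4 were apart from all other lines, with no overlap of arrays, and clone 2 was at the top. *Cdhr1*, a photoreceptor cadherin, was low in all 3 clones (-2.44, -2.25 and -2.44), at 4.33 to 4.52, near background.

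At the distal edge, *Tpt1*, the translationally controlled tumour protein, differed by -0.49, -0.55 and 0.53 in clones 1, 4 and 2, and *Gtf2f2*, a subunit of the general transcription factor TFIIF, by -1.08, -1.07 and -0.83. Both were lowest in clones 1 and 4. *Gpalpp1*, near background at an SWT level of 4.59, differed by -0.09, 0.17 and 1.01. *Tsc22d1*, a leucine zipper regulator that responds to TGF-beta, read 8.83 and 8.73 in SWT clone 4, 9.02 and 8.92 in SWT clone 5, 8.37 and 8.29 in S113 clone 4, 8.64 and 8.41 in S113 clone 5, 8.11 and 7.68 in S95 clone 2, 8.40 and 8.43 in TSS, 8.25 and 8.23 in S95 clone 1 and 7.94 and 7.97 in S95 clone 4. At this last gene clone 2 overlapped clones 1 and 4, so the distal edge is not marked by *Tsc22d1* itself. Beyond it, *Lacc1* differed by -0.19, -0.15 and -0.53, *Enox1*, a cell surface oxidase, by -2.22, -1.44 and -2.88 and *Dnajc15*, a mitochondrial co-chaperone, by -0.32, -0.36 and -0.50, with clone 2 the lowest at each.

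**Figure D5:**
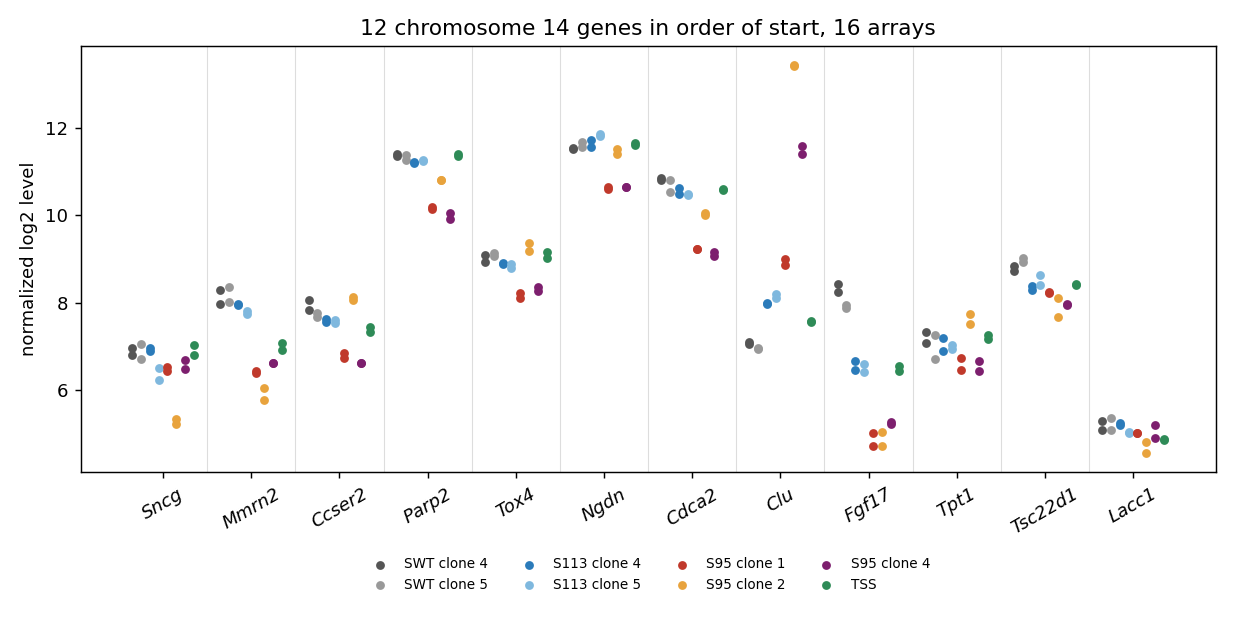
Normalized log2 levels (vertical axis) of 12 chromosome 14 genes in order of start (horizontal axis) on 16 arrays, coloured by line. Among the genes shown from *Ccser2* to *Tpt1*, other than *Clu* and *Fgf17*, the arrays of S95 clones 1 and 4 are the lowest. At *Tpt1* they overlap with SWT clone 5. Over the whole stretch, their 4 arrays lie below the other 12 at 72 of 175 genes (41.1%). At *Sncg* and *Lacc1*, outside the stretch, clone 2 is the lowest line.

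Among developmental transcription factors, 9 of 15 genes in the stretch were measured, and 6 lay at least 1.5-fold below SWT in clone 1 and 6 in clone 4, with medians of -0.89 and -0.92 against -0.01 and 0.00 over all genes. In clone 2 the median was 0.00, against -0.06 over all genes. The 7 measured members in the rest of the chromosome were as low, with medians of -0.93 and -1.06 in clones 1 and 4 and 4 members low in each, so the low level of this list was not limited to the stretch. For this and the later lists, 57.1%, 54.3% and 26.3% of all stretch genes lay at least 1.5-fold below SWT in clones 1, 4 and 2. Over all genes the shares were 14%, 16.8% and 24.1%. Clones 1 and 4 were both lowest at 56.0% of stretch genes and 7.08% of all genes. Whether a list differed from the stretch as a whole was not tested. *Tox4*, an HMG-box protein of a phosphatase complex, was one of the low members of the list in the stretch. *Tox4* read 9.08 and 8.93 in SWT clone 4, 9.14 and 9.06 in SWT clone 5, 8.89 and 8.91 in S113 clone 4, 8.80 and 8.88 in S113 clone 5, 9.18 and 9.37 in S95 clone 2, 9.15 and 9.03 in TSS, 8.22 and 8.10 in S95 clone 1 and 8.26 and 8.35 in S95 clone 4. All 4 arrays of clones 1 and 4 lay below the other 12, among which S113 was the lowest and clone 2 the highest. *Otx2* differed by -1.54, -1.23 and -1.37 in clones 1, 4 and 2 and so was low in all 3, while S113 and TSS lay between 0.35 and 0.84 above SWT. *Hr*, a nuclear receptor corepressor picked out after its values were seen, differed by -1.50, -1.46 and 0.53, and *Gata4*, dim at an SWT level of 4.48, by 0.30, 0.38 and 1.57.

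The list of secreted signals and receptors had 9 measured members of 22 in the stretch. Of these, 5 lay at least 1.5-fold below SWT in each of clones 1 and 4 and 3 in clone 2. These counts were near the shares of the stretch. The lowest member of the list was *Fgf17*, an FGF ligand of the early embryo. *Fgf17* read 8.24 and 8.42 in SWT clone 4, 7.87 and 7.95 in SWT clone 5, 6.66 and 6.45 in S113 clone 4, 6.40 and 6.60 in S113 clone 5, 4.71 and 5.04 in S95 clone 2, 6.43 and 6.54 in TSS, 4.71 and 5.00 in S95 clone 1 and 5.21 and 5.27 in S95 clone 4. It was lowest in the 3 S95 clones and intermediate in S113 and TSS, so its level did not single out clones 1 and 4. *Bmp4* differed by -0.78, -0.96 and -1.42, lowest in clone 2, and *Lpar6*, a lysophosphatidic acid receptor picked out after its values were seen, by 0.93, 1.11 and 3.03.

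For cell cycle and mitosis, 9 of 11 stretch genes were measured, and 7 lay at least 1.5-fold below SWT in each of clones 1 and 4, with medians of -1.32 and -1.40. In clone 2, 4 did, with a median of -0.41. Both measured members outside the stretch were low too, with medians of -0.86 in clones 1 and 4 and -1.38 in clone 2. Both clones were lowest at 7 of the 9. *Pbk*, a mitotic kinase, read 10.33 and 10.37 in SWT clone 4, 10.29 and 10.20 in SWT clone 5, 10.30 and 10.15 in S113 clone 4, 10.10 and 10.07 in S113 clone 5, 9.16 and 9.16 in S95 clone 2, 10.01 and 10.19 in TSS, 8.74 and 8.62 in S95 clone 1 and 8.76 and 8.86 in S95 clone 4. Clones 1 and 4 overlapped with no other line, and clone 2 lay between them and SWT. *Cdca2*, which loads a phosphatase on mitotic chromosomes, and *Esco2*, a cohesin acetyltransferase, followed the same order, with -1.52, -1.63 and -0.72 and -2.14, -2.04 and -1.57 in clones 1, 4 and 2. *Rb1*, the retinoblastoma cell cycle inhibitor, was picked out after its values were seen. *Rb1* read 8.58 and 8.44 in SWT clone 4, 8.91 and 8.85 in SWT clone 5, 8.30 and 8.36 in S113 clone 4, 8.13 and 8.25 in S113 clone 5, 8.71 and 8.67 in S95 clone 2, 8.83 and 8.88 in TSS, 6.34 and 6.46 in S95 clone 1 and 6.95 and 7.07 in S95 clone 4. It was low in clones 1 and 4 and at the SWT level in clone 2 and TSS.

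All 5 measured genes of the DNA repair and chromatin list (of 12 in the stretch) lay at least 1.5-fold below SWT in clones 1 and 4, with medians of -1.01 and -0.95, and 2 did in clone 2 (median -0.56). *Parp2*, a DNA break sensor, read 11.40 and 11.37 in SWT clone 4, 11.39 and 11.28 in SWT clone 5, 11.21 and 11.23 in S113 clone 4, 11.25 and 11.28 in S113 clone 5, 10.80 and 10.81 in S95 clone 2, 11.35 and 11.40 in TSS, 10.20 and 10.15 in S95 clone 1 and 9.91 and 10.05 in S95 clone 4. The 4 arrays of clones 1 and 4 were the lowest, followed by clone 2. *Prmt5*, an arginine methyltransferase, differed by -1.03, -0.95 and -0.63 and *Apex1*, the main abasic site endonuclease, by -1.01, -1.12 and -1.09. *Chd8*, a chromatin remodeller picked out after its values were seen, differed by -0.59, -0.74 and 0.28, low in clones 1 and 4 alone among the 3.

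Of the RNA processing and polymerase genes, 8 of 9 in the stretch were measured, and both clones were lowest at all 8. There were 7 at least 1.5-fold below SWT in each clone, with medians of -0.99 and -0.88, and 2 in clone 2 (-0.39). *Ngdn*, a nucleolar ribosome assembly factor, read 11.52 and 11.54 in SWT clone 4, 11.69 and 11.57 in SWT clone 5, 11.73 and 11.57 in S113 clone 4, 11.86 and 11.82 in S113 clone 5, 11.41 and 11.52 in S95 clone 2, 11.65 and 11.62 in TSS, 10.66 and 10.61 in S95 clone 1 and 10.66 and 10.66 in S95 clone 4. Clone 2 lay just under SWT and well above clones 1 and 4. *Mettl3*, the catalytic subunit of the RNA adenosine methyltransferase, differed by -1.28, -1.18 and -0.55, and *Mettl17*, picked out after its values were seen, by -0.76, -0.69 and 0.91. *Hnrnpc*, an RNA-binding splicing factor and the brightest of the list at an SWT level of 13.92, differed by -0.60, -0.62 and -0.59, almost the same in all 3 clones.

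The proteasome and nuclear transport list had 8 of 9 stretch members measured. Its differences were smaller, with medians of -0.52 and -0.44 in clones 1 and 4 and 0.28 in clone 2, and 3, 2 and 0 members at least 1.5-fold below SWT. Even so, both clones were lowest at 6 of the 8. *Psme1*, a subunit of the proteasome activator PA28, differed by -0.48, -0.47 and 0.53 and *Psmb5*, a catalytic proteasome subunit, by -0.29, -0.19 and 0.51. *Kpna3*, a nuclear import adaptor, differed by -0.93, -0.53 and 0.19. In mitochondria and metabolism, 10 of 14 were measured, 7 of them low in clone 1 and 6 in clone 4, with medians of -0.72 and -0.70, against 0.36 in clone 2. *Mrpl52*, a mitochondrial ribosomal protein, differed by -0.67, -0.77 and 0.47, and *Pnp*, a purine salvage enzyme, by -0.67, -0.62 and -0.51. *Ctsb*, the lysosomal protease cathepsin B, differed by 0.00, 0.35 and 1.91.

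In growth control and cell death, 10 of 11 were measured, 5 low in clone 1 and 6 in clone 4. These counts were near the stretch shares of 57.1% and 54.3%. The medians of the list were -0.48 and -0.64 in clones 1 and 4 and 0.30 in clone 2. *Dad1*, a subunit of the oligosaccharyltransferase, differed by -0.13, -0.46 and 0.93, and *Bnip3l*, a mitophagy receptor, by -0.64, -0.69 and -0.03. Cytoskeleton and adhesion went the other way, since of 5 measured genes of 11 none was low in clone 1 and 1 in clone 4, while 3 and 4 lay at least 1.5-fold above SWT. Its medians were 0.82 and 1.35 in clones 1 and 4 and 2.13 in clone 2. *Dpysl2*, an axon guidance protein, differed by -0.36, -0.79 and -0.26 and *Lgals3*, the lectin galectin-3, by 0.49, 1.61 and 2.81. Outside the stretch, 1 of the 2 measured members of the DNA repair list was low in each of clones 1 and 4, and 1 of 8 in metabolism was low in clone 1 and 0 in clone 4. None of the 3 members of secreted signals, 3 of RNA processing, 1 of proteasome and transport and 2 of cytoskeleton measured there was low in either clone.

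The 5 stretch genes with the highest mean difference over the S95 clones were each highest in clone 2, unlike *Nefm*, which differed by 1.08, 1.35 and 0.60 in clones 1, 4 and 2. *Clu*, the secreted chaperone clusterin, read 7.09 and 7.05 in SWT clone 4, 6.93 and 6.95 in SWT clone 5, 7.97 and 7.99 in S113 clone 4, 8.10 and 8.20 in S113 clone 5, 13.43 and 13.44 in S95 clone 2, 7.56 and 7.58 in TSS, 8.86 and 8.99 in S95 clone 1 and 11.41 and 11.59 in S95 clone 4. Every S95 array lay above every other array, and the difference from clone 2 was -4.51 in clone 1 and -1.94 in clone 4. *Sox7* differed by 3.49, 3.45 and 4.38 in clones 1, 4 and 2 and by 1.40 and 3.67 in S113 clones 4 and 5. *Dok2*, a docking protein, differed by 2.44, 2.36 and 4.65, *Bmp1*, a procollagen protease, by 1.44, 2.06 and 5.03 and *Rem2*, a small GTPase, by 1.18, 1.37 and 3.58. In the rest of the chromosome, *Tnnc1*, a troponin, had the same order with 2.15, 2.55 and 5.37. *Mbnl2*, a splicing regulator, differed by 2.77, 3.21 and 3.72, *Elf1*, an ETS factor, by 0.97, 1.54 and 2.36 and *Dnajc3*, a chaperone of the endoplasmic reticulum, by 1.27, 1.37 and 2.15.

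The other lowest stretch genes, chosen by the mean of the 3 S95 clones, were low in each of them. *Defb42*, *Pnma2* and *Ephx2* read 4.21 to 4.79 there, near background, where a further drop could not be seen. *Defb42*, a defensin gene, differed by -2.50, -2.66 and -2.92 in clones 1, 4 and 2, *Pnma2* by -2.74, -2.62 and -2.52, *Ephx2*, a soluble epoxide hydrolase, by -2.60, -2.39 and -2.31 and *Efs*, an adaptor of Src kinases, by -2.43, -2.28 and -2.16. In the rest, *Timm8a2* differed by -1.99, -1.73 and -3.28 and *Gm3696* by -1.49, -1.93 and -2.31, both lowest in clone 2. *Sox21*, a SOX family repressor, differed by -3.25, -2.50 and -0.11, and by -2.10 and -1.42 in S113 clones 4 and 5, so it was low in S113 as well. Clones 1 and 4 were its lowest lines, and the SWT clones were 1.41 apart.

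Clone 2 alone was tested against SWT in a limma fit of the 6 lines other than clones 1 and 4, which the choice of the stretch did not use. Clone 2 is a single line, and its spread was taken to be that of the other lines. In the stretch 42 genes rose and 44 fell at an adjusted p under 0.05, and in the rest 21 rose and 37 fell, where 42.1% of all genes passed, 20.2% rising and 21.8% falling. *Clu* rose by 6.43 (SE 0.17, limma adjusted p = 0.001), *Rem2* by 3.58 (SE 0.20, limma adjusted p = 0.0013) and *Timm8a2* fell by 3.28 (SE 0.16, limma adjusted p = 0.0013). Named genes that were low in clones 1 and 4 went either way in clone 2. *Tox4* and *Ccser2* differed by 0.22 and 0.26 there, and *Apex1* and *Cdca2* by -1.09 and -0.72. Of the lists, clone 2 had 4 stretch members lower and 0 higher in cell cycle and mitosis (*Cdca2*, *Esco2*, *Pbk*, *Wdhd1*), 3 lower and 0 higher in DNA repair and chromatin, and 3 higher and 0 lower in cytoskeleton and adhesion. The other lists were mixed, with 4 lower and 1 higher among developmental transcription factors, 3 and 4 among secreted signals and receptors, 2 and 4 in mitochondria and metabolism, 2 and 1 in RNA processing and polymerase, 1 and 1 in growth control and cell death and 0 and 1 in proteasome and nuclear transport. Fewer genes passed, both on chromosome 14 and over all genes, when either SWT clone was left out.

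S113 and TSS were each tested against SWT in the fit of all 8 lines, and no gene of chromosome 14 passed, as 0% of all 9300 genes did in either comparison. At an unadjusted p under 0.05, 15 stretch and 17 other chromosome 14 genes were found in S113 (background 9.27%), and 14 and 12 in TSS (background 9.83%). The smallest limma adjusted p on the chromosome was 0.12 in S113, shared by *Zic2*, a zinc finger factor of neural development (-1.18, SE 0.15), and *Fgf17* (-1.59, SE 0.21). *Anxa8*, an annexin, followed with -0.96 (SE 0.16, limma adjusted p = 0.15). In TSS it was 0.32 for *Fgf17* (-1.64, SE 0.26) and *Nfatc4*, a calcium-responsive factor (-1.79, SE 0.35). *Tdrd3*, a Tudor domain protein, had 1.29 (SE 0.31, limma adjusted p = 0.36). The single TSS line was given the spread of the other groups. When S95 clone 2 was left out of the fit, 9 chromosome 14 genes passed in S113, with 2 higher and 7 lower. Over all 9300 genes 147 passed in that fit.

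With the 3 S95 clones as 1 group against SWT, 5 stretch genes were higher and 56 lower at a limma adjusted p under 0.05, and 13 and 21 in the rest, beside 23% of all genes (11% higher, 12.1% lower). This contrast holds clones 1 and 4, from which the stretch was chosen, and nothing is read from it. The count for the whole chromosome was 95, beside 2143 over all genes. It was 164 beside 3187 without clone 2 and 50 beside 1038 without clone 4. Leaving out an S113 or SWT clone left 1 line in its group, and both counts were then lower.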

How the data were processed

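RNA from 8 lines was hybridized to 16 Illumina mouse arrays, 2 for each line. The authors deposited probe intensities that were not normalized, summarized with BeadStudio 3.2 per the submitters' notes. The authors also deposited a detection p-value for each probe and normalized log2 values, for which the notes name RMA and lumi without giving their roles. From the intensities, levels were made with the neqc method of limma 3.58.1 (R 4.3.3), in which the background is estimated through the detection p-values, 16 is added to each intensity, and quantile normalization follows on the log2 scale. The added 16 compresses differences of dim probes. Of 25697 probes, 23978 named a gene and 23962 were matched by Entrez identifier to RefSeq, which gave names, chromosomes and gene order. As the array files name no genome build, no gene coordinates are given beyond those of the RefSeq promoters. A probe was kept if its detection p was under 0.05 on each array of 2 or more lines, which 12668 were, and each of the 9300 genes was read from its brightest kept probe.

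The 2 arrays of a line were averaged, with a correlation between them of 0.9942 to 0.9976. Group means were fitted to the 8 lines (6 for clone 2 alone) with lmFit and eBayes, two-sided, with Benjamini-Hochberg adjustment over 9300 genes. The fit was tested on simulated data. P-values measure the spread between clones, of which there are few. The number of arrays limits the precision. The stretch, the gene lists and the genes named were chosen with earlier results of these data known. Named genes were the edges of the stretch, the lowest and highest genes by the mean of the S95 clones, the 3 brightest members of each list and the smallest p of each test. Genes named beyond this rule, among them *Rb1*, *Hr*, *Chd8*, *Mettl17*, *Lpar6* and *Nefm*, were chosen after their values were seen.

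The alternatives used the authors' log2 values, normexp correction at offset 50, a median shift, no detection filter, detection on all 16 arrays, the mean of a gene's probes, the median of the 8 lines as baseline, arrays with the line as a random block, trended robust eBayes, and leaving out each line.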

Additional observations from a re-analysis of the deposited data

Results flagged for a closer look

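The arrays of each group were searched for 1 array far from the others, for the stretch minus the rest and for each named gene, which gave 174 checks and 8 hits. Chance gives about 1 hit in 20 groups. The gap to the nearest array exceeded Dixon's limit for *Esco2* in SWT, where 1 array of clone 4 read 9.98 and the others 9.65 to 9.67, and for *Ctsb* in SWT, where 1 array of clone 5 read 10.62 and the others 10.98 to 11.03. *Cdca2* had 1 array at 10.54 in SWT, with the others at 10.80 to 10.85, and 1 array at 10.63 in S113, with the others at 10.46 to 10.48. *Psmb5* had 1 SWT array at 8.63, against 8.52 to 8.53. In S113 clone 5, 1 array read 7.89 for *Bmpr1a*, against 8.10 to 8.14, and 7.38 for *Tdrd3*, against 7.07 to 7.11. *Cdhr1* read 4.65 on 1 array of S95 clone 4, against 4.32 to 4.39. The stretch minus the rest was not among the hits.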

How the results depend on the processing

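The stretch minus the rest stayed negative in S95 clones 1 and 4 under each alternative. With the deposited log2 values it was -0.83 and -0.86, with the normexp background at offset 50 -0.46 and -0.47, with a median shift -0.59 and -0.62, and with detection on all 16 arrays -0.77 and -0.88. With no detection filter it was -0.07 in both, with the median of the 8 lines as baseline -0.54 in both, and with the mean of a gene's probes -0.58 in clone 4. Against a single SWT clone it lay between -0.66 and -0.64 in clone 1. Stretch genes at least 1.5-fold low in clone 2 numbered 27 against the median of the 8 lines.

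Replicate numbers did not pair the arrays, since correlations of same-numbered arrays across 28 pairs of lines ran from -0.19 to 0.22 with a median of 0. With arrays as samples and the line as a random block, 8 chromosome 14 genes passed in S113 and 3 in TSS, beside 216 and 83 over all genes. With a replicate block added, 5 and 2 passed, beside 177 and 66. Leaving out lines, the S113 count ranged from 0 to 9, that of clone 2 from 88 to 145 and that of the 3 S95 clones from 19 to 164.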
